A study of Mus musculus with 12 samples.

Results

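Described here are 9 genes of fatty acid oxidation and ketone body use in the ventromedial nucleus (VMN) of the mouse hypothalamus: *Cpt1a*, *Cpt2*, *Slc25a20*, *Acadm*, *Acadl*, *Acadvl*, *Hadha*, *Hadhb* and *Oxct1*. They were chosen by name for their function, and symbols were attached to the Ensembl identifiers of the count files, which hold 46517 genes. The study used translating ribosome affinity purification (TRAP), which isolates RNA on ribosomes that carry a tagged protein made only in selected cells, to look for changes of gene expression in VMN cells that lack AMPK activity. AMPK is a kinase that senses cellular energy. Each pool of 6 animals gave 1 input library (dissected tissue) and 1 output library (RNA pulled down from SF1 cells), and the 12 libraries form 4 groups of 3: CTRL input, CTRL output, DN input and DN output. All mice ate regular chow, were sampled after an overnight fast, and carried an AAV for a GFP-L10 ribosomal fusion protein. DN mice also received an AAV for a dominant-negative AMPK. The labels of CTRL disagree on that virus: it appears in their treatment protocol but is marked absent in their characteristics, which were used here. If CTRL mice had no second virus, the construct and the second virus cannot be told apart. AMPK activity was not measured, the labels give no strain or age, and the promoter or Cre line that limits the fusion protein to SF1 cells is not given in the sources used here.

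Fatty acids enter mitochondria as carnitine esters. CPT1A makes the ester at the outer membrane, the carrier SLC25A20 takes it through the inner membrane, and CPT2 turns it back into an acyl-CoA. Acyl-CoA dehydrogenases for very long (ACADVL), long (ACADL) and medium (ACADM) chains then open each round of beta oxidation, and the trifunctional protein, built from HADHA and HADHB, completes it on long chains. OXCT1 activates acetoacetate, so that a cell can burn ketone bodies made by the liver in a fast. In brain, fatty acid oxidation is mostly a property of glia, and ketone bodies are used by neurons and glia.

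Promoter sequences are shown for the genes that differed between output and input, with their positions on GRCm38.p6 in the RefSeq promoter table, which held all 9 genes. The stretches lie before the RefSeq start and outside the exons of protein-coding genes in GENCODE. The *Acadl* stretch is chr1:66863310-66863559, minus strand, *Hadhb* is chr5:30155163-30155247, plus strand, and *Oxct1* is chr15:4026178-4026382, plus strand. Capitals mark GC boxes, GGGCGG on either strand.
Acadl: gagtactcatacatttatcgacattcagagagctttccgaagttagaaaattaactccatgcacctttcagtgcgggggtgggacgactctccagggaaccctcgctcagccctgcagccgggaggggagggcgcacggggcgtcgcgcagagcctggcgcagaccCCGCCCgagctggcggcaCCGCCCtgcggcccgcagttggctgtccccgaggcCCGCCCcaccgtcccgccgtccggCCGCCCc
Hadhb: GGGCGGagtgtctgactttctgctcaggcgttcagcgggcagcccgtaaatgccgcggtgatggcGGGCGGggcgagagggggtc
Oxct1: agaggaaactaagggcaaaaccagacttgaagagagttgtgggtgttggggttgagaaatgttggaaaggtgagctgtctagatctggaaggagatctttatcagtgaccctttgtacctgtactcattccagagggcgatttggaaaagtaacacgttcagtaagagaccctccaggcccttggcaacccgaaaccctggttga
The *Acadl* stretch of 250 bases holds 4 GC boxes, the *Hadhb* stretch of 85 bases holds 2, and the *Oxct1* stretch of 205 bases holds 0. The *Hadhb* stretch is the whole gap between *Hadha* and *Hadhb*, which are transcribed away from each other. In the full promoter windows of 300 bases (250 before the start and 50 after), 6 of the 9 genes had a GC box (*Acadl*, *Hadhb*, *Hadha*, *Cpt1a*, *Cpt2* and *Slc25a20*), as did 35.7% of all 32851 promoters. The nuclear receptor core motif AGGTCA, searched on both strands, was in the windows of *Acadm*, *Acadvl* and *Cpt1a* and in 16.3% of all promoters. A repeat of it with 1 base between, AGGTCANAGGTCA, the direct repeat that PPAR receptors bind, was in 0 of the 9 and in 0.0396% of all promoters. The extended motif TCAAGGTCA of estrogen-related receptors, which contains that core, was also in 0 of the 9 and in 0.423% of all. These are matches of letters and show no binding.

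Libraries held 34.6 to 55.5 M gene counts. Genes of the mitochondrial chromosome took 74.9 to 79.7% of them in inputs and 17.9 to 26.1% in outputs, which left 8.54 to 11.3 M nuclear counts per input and 26.2 to 32.1 M per output. Levels are given as normalized CPM, that is counts per library size after scaling with edgeR's TMM factors over the 12 libraries, each group with its mean ± SD (n = 3 pools). Output was compared with input by edgeR's quasi-likelihood test, with p adjusted by Benjamini and Hochberg over all genes tested and a threshold of 0.05. Fold changes are log2 values ± SE. SF1 marks neurons of the VMN. In a fit of all 6 pools, chosen after seeing the data, 10 of 10 VMN neuron markers were higher in outputs (median log2 1.62), 5 of 10 pan-neuronal markers were higher (0.56), and 12 of 12 astrocyte markers (median −2.28) and 11 of 12 oligodendrocyte markers (−2.13) were lower. Astrocyte RNA was still present in outputs, where the summed level of the 12 markers was 1050 to 1750 normalized CPM against 2840 to 3420 in inputs, with no marker at 0.

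*Oxct1* was the most abundant of the 9 genes and the 1 gene called higher in pulled-down RNA. Over all 6 pools its output exceeded its input by 0.62 ± 0.13 on the log2 scale. *Acadl* (−2.12 ± 0.57) and *Hadhb* (−1.69 ± 0.43) were called lower in output. Their calls held in only 8 of 12 and 6 of 11 alternative analyses, and that of *Hadhb* was lost with the pool as a block. Of all genes tested, 5.14% were called higher and 4.14% lower. *Cpt1a*, *Cpt2*, *Slc25a20*, *Acadm* and *Hadha* did not pass the test, and *Acadvl* was too low to be tested. None of the 8 tested genes passed the test of DN against CTRL in either fraction. There edgeR called 0% of all genes in outputs and 0.00756% in inputs.

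**Figure D1:**
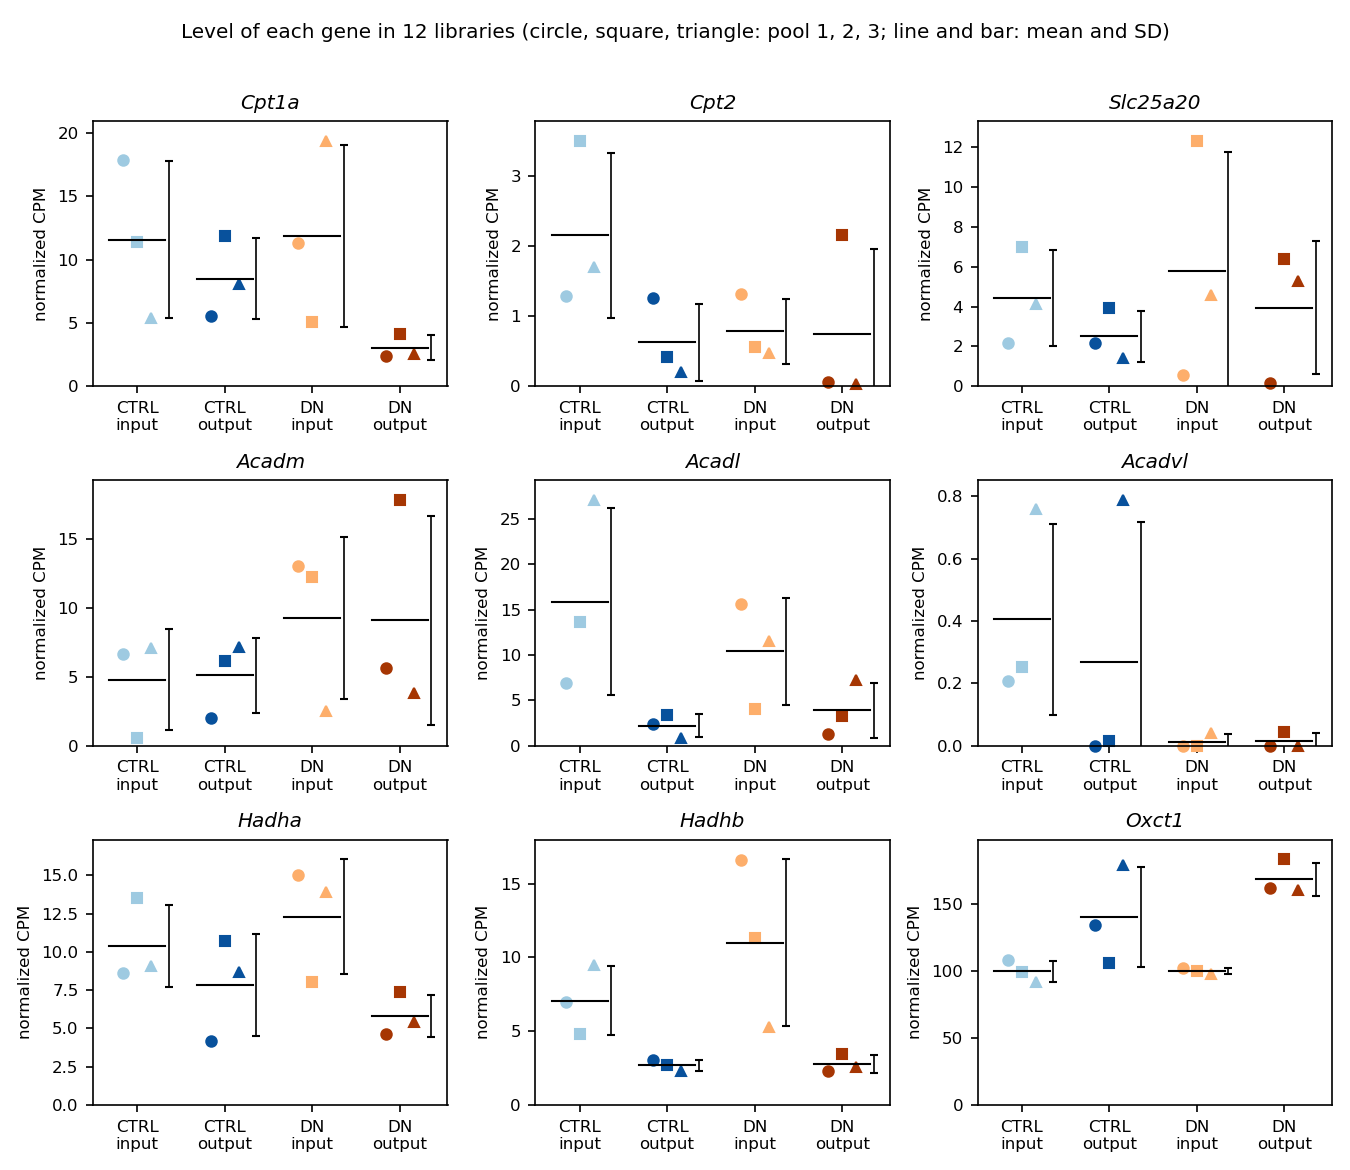
Normalized CPM (vertical axis, linear, from 0, with its own scale for each gene) of the 9 genes in CTRL input, CTRL output, DN input and DN output. Symbols are the 3 pools of each group, lines are means and bars are SD, cut at 0; *Oxct1* lies between 91.9 and 183 in all 12 libraries, and no other gene exceeds 27.1.

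*Oxct1* lies on chromosome 15 (4026383 to 4155344, plus strand, GRCm38) and encodes the enzyme that commits ketone bodies to oxidation. Its level in CTRL inputs 1, 2 and 3 was 108, 99.0 and 91.9 normalized CPM (99.5 ± 7.89) and in CTRL outputs 134, 106 and 179 (140 ± 37.0). In DN inputs it was 102, 99.9 and 97.9 (99.9 ± 2.08) and in DN outputs 162, 183 and 160 (168 ± 12.4). In DN every output stood far above every input, whereas in CTRL output 2 lay just under the highest input. In DN alone *Oxct1* passed the test (log2 0.74 ± 0.18, adjusted p = 0.0422, edgeR), and in CTRL alone it did not (0.48 ± 0.20, adjusted p = 0.265). The change of the output to input ratio by DN was 0.26 ± 0.27 (95% interval −0.31 to 0.83, adjusted p = 0.955, edgeR), and did not pass.

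In the fit of all 6 pools, condition and fraction were separate terms. *Oxct1* was higher in output by 0.62 ± 0.13 (95% interval 0.34 to 0.90, adjusted p = 0.00624, edgeR). It was higher in 6 of 6 pools, and the log2 ratios of output to input were 0.32, 0.09 and 0.96 in CTRL pools and 0.66, 0.86 and 0.71 in DN pools. The call held in 12 of 12 alternative analyses of this fit, with values of 0.51 to 0.71 and adjusted p up to 0.0373. In DN alone it was lost without DN pool 1 (adjusted p = 0.16), pool 2 (0.217) or pool 3 (0.216), with the pool as a block (0.0673), with DESeq2's size factors (0.0552) and among genes of at least 5 CPM (0.0663). Of the exon bases of *Oxct1*, 12.6% overlap the antisense gene *BC037032*, and since the strand setting of the counting is not given, reads of this stretch cannot be assigned to one of them. Summed pan-neuronal markers also had log2 ratios above 0 in 6 of 6 pools, at 0.54 to 0.86. Their order over pools differed from that of *Oxct1*: they were highest in CTRL pool 2 (0.86), where *Oxct1* was lowest (0.09). They were lowest in CTRL pool 3 (0.54), where *Oxct1* was highest (0.96). Summed VMN neuron markers had the order of *Oxct1* in CTRL pools 1, 2 and 3 (1.48, 1.29 and 1.64). In DN pools (1.68, 1.49 and 1.69) they did not, being lowest in pool 2, where *Oxct1* was highest of the DN pools (0.86). The part of neuronal RNA in the *Oxct1* result was not tested. In pooled tissue, fewer cells of a type and less RNA per cell cannot be told apart.

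The share of *Oxct1* in the counts of all 9 genes does not depend on scaling. It was 58.2 to 68.0% in inputs and 73.0 to 90.8% in outputs, with no overlap between fractions. The share also rises when the other 8 genes fall, so it is no measure of *Oxct1* alone. The median of their summed level was 54.7 normalized CPM in CTRL inputs and 29.4 in CTRL outputs, and 57.6 and 26.9 in DN. Per kilobase of exon *Oxct1* stood at 26.9 ± 2.13 normalized CPM in CTRL input, 37.8 ± 9.99 in CTRL output, 27.0 ± 0.562 in DN input and 45.5 ± 3.36 in DN output. The next gene per kilobase was *Acadl* in inputs, 3.39 times lower in CTRL and 5.21 times lower in DN, and *Acadm* in outputs, 29.1 and 19.6 times lower. The length used is that of all annotated exons of a gene together: 3701 bases for *Oxct1*, 2005 for *Acadl*, 3913 for *Acadm* and 8730 for *Hadha*. Which transcripts were present was not measured, so folds between genes per kilobase depend on the annotation. *Oxct1* was also the steadiest of the 9 genes in 3 of the 4 groups, with a coefficient of variation between pools of 2.08 to 7.93%, and only in CTRL output (26.5%) was another gene, *Hadhb* (14.0%), steadier. The other 8 genes varied by 14.0 to 173%. The 173% was that of *Acadvl* in DN inputs and DN outputs, which held 1 and 3 counts in all. *Oxct1* had 2059 to 12261 counts per library and the other genes 0 to 1194. Low counts alone raise this coefficient, so the steadiness of *Oxct1* was not separated from its depth.

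*Acadl*, the long-chain acyl-CoA dehydrogenase, had the lowest fold change of the 8 tested genes in CTRL and in the fit of 6 pools with all libraries, but not in DN, where *Hadhb* (−1.99) and *Cpt1a* (−1.97) were lower without passing. It lies on chromosome 1 (66830839 to 66863277, minus strand). CTRL inputs had 6.89, 13.7 and 27.1 normalized CPM (15.9 ± 10.3) and CTRL outputs 2.45, 3.38 and 0.854 (2.23 ± 1.28). DN inputs had 15.6, 4.05 and 11.5 (10.4 ± 5.87) and DN outputs 1.27, 3.23 and 7.21 (3.90 ± 3.03). The groups were separate in CTRL and overlapped in DN, where output 3 was above input 2.

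In CTRL, *Acadl* was the 1 gene of the 8 tested that passed, lower in output by −2.85 ± 0.68 (adjusted p = 0.0487, edgeR), where 1.42% of all genes tested were called lower and 1.78% higher. In DN the fold change was −1.41 ± 0.83 (adjusted p = 0.46, edgeR), and the 1 gene called, *Oxct1*, was higher, where 1.84% of all genes were called higher and 1.54% lower. At an unadjusted p below 0.05 (edgeR) there were 3 of the 8 in each condition. Of all genes tested, 2200 of 13456 in CTRL and 2041 of 13041 in DN were below it. The difference between the CTRL and DN ratios of *Acadl* was 1.42 (95% interval −0.82 to 3.66, adjusted p = 0.904). In the fit of 6 pools *Acadl* was lower by −2.12 ± 0.57 (95% interval −3.33 to −0.91, adjusted p = 0.0265, edgeR) and lower in 6 of 6 pools, with log2 ratios from −3.92 to −0.25.

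The *Acadl* calls sat close to the threshold. In CTRL alone the fold change was −3.29, −3.36 and −1.82 without CTRL pool 1, 2 or 3, with adjusted p of 0.167, 0.214 and 0.263. The adjusted p was 0.0749 with the pool as a block, 0.0503 without mitochondrial genes and 0.0783 in a fit of all 12 libraries. In the fit of 6 pools it was 0.0682, 0.0794 and 0.111 without CTRL pool 1, 2 or 3 and 0.0898 without DN pool 1, with fold changes of −2.14, −2.17, −1.57 and −1.94.

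*Hadha* and *Hadhb* encode the subunits of one enzyme complex and are neighbours on chromosome 5, 85 bases apart (*Hadha* 30118304 to 30155162, minus strand, *Hadhb* 30155248 to 30184593, plus strand). *Hadhb* was at 6.96, 4.8 and 9.46 normalized CPM in CTRL inputs (7.07 ± 2.33) and at 3.07, 2.71 and 2.32 in CTRL outputs (2.70 ± 0.377). It was at 16.6, 11.3 and 5.28 in DN inputs (11.0 ± 5.65) and at 2.30, 3.49 and 2.58 in DN outputs (2.79 ± 0.62). Every output of *Hadhb* was below every input, in both conditions. *Hadhb* was lower in output in 6 of 6 pools, by −1.69 ± 0.43 in the joint fit (95% interval −2.60 to −0.77, adjusted p = 0.02, edgeR). It did not pass in CTRL (−1.40 ± 0.61, adjusted p = 0.279) or DN alone (−1.99 ± 0.73, adjusted p = 0.19).

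With the pool as a block the adjusted p of *Hadhb* over 6 pools was 0.0582 (−1.59). It was 0.051 without CTRL pool 1, 0.0778 without CTRL pool 3, 0.0968 without DN pool 1 and 0.0521 without DN pool 2. *Hadha* was at 8.59, 13.5 and 9.10 normalized CPM in CTRL inputs (10.4 ± 2.68) and at 4.18, 10.7 and 8.67 in CTRL outputs (7.84 ± 3.33). DN inputs had 15, 8.06 and 13.9 (12.3 ± 3.74) and DN outputs 4.64, 7.36 and 5.43 (5.81 ± 1.40). The groups overlapped in CTRL and were separate in DN. *Hadha* did not pass over 6 pools (−0.74 ± 0.37, 95% interval −1.52 to 0.03, adjusted p = 0.246, edgeR), although its log2 ratio was below 0 in 6 of 6 pools, from −1.51 to −0.06. Whether the 2 subunits differ in their ratio was not tested.

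Over 6 pools 1 of the 8 tested genes was called higher and 2 lower, where 5.14% of all genes tested were called higher and 4.14% lower. The median fold change of the 8 genes was −0.84, against −0.02 over all genes tested. Summed over the 8 genes other than *Oxct1*, the log2 ratio of output to input was below 0 in 6 of 6 pools, at −1.25, −0.47 and −1.11 in CTRL and −2.09, −0.26 and −1.07 in DN. DESeq2, an alternative test, called 1 of the 8 in CTRL (8.71% of all genes), 3 in DN (8.62%) and 4 over 6 pools (14.8%). The genes it added were *Hadhb* (−2.03, adjusted p = 0.0332) and *Cpt1a* (−2.01, 0.0401) in DN and *Cpt1a* over 6 pools (−1.24, 0.0382).

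**Figure D2:**
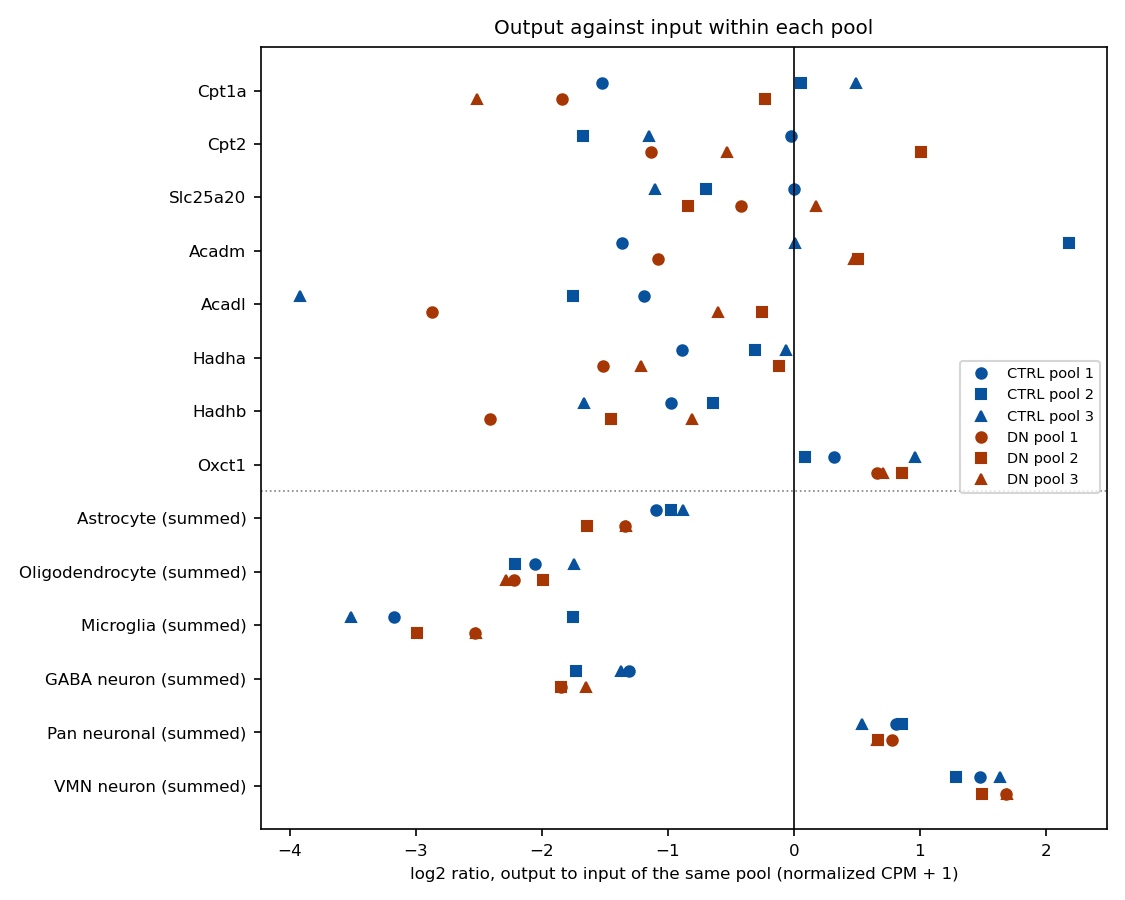
Log2 ratio of output to input within each of the 6 pools (horizontal axis, from normalized CPM + 1) for the 8 tested genes and, below the dotted line, the summed markers of 6 cell types; blue is CTRL, brown is DN, and the symbol is the pool number. *Oxct1* lies above 0 in 6 of 6 pools, and *Acadl*, *Hadha*, *Hadhb* and the astrocyte, oligodendrocyte, microglia and GABA neuron sums lie below 0 in 6 of 6.

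Beside these ratios, the summed markers within pools had log2 ratios of −1.64 to −0.88 for astrocytes, −2.28 to −1.74 for oligodendrocytes, −3.51 to −1.75 for microglia and −1.85 to −1.31 for GABA neurons, and of 1.29 to 1.69 for VMN neurons. *Acadl* and *Hadhb* were lower in the same outputs as glial and GABA neuron markers, and the part of each cell type in their values was not tested. In outputs no marker of astrocytes or oligodendrocytes was at 0, *Aif1* of the microglial list was at 0 in DN outputs, and summed microglial markers were at 7.31 to 31.3 normalized CPM against 73.6 to 366 in inputs.

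The genes of the carnitine shuttle were low and scattered. *Cpt1a* (chromosome 19, 3322334 to 3385733, plus strand), the step that malonyl-CoA controls, was at 17.9, 11.4 and 5.44 normalized CPM in CTRL inputs (11.6 ± 6.22) and at 5.59, 11.9 and 8.05 in CTRL outputs (8.52 ± 3.19). In DN inputs it was at 11.3, 5.06 and 19.4 (11.9 ± 7.19) and in DN outputs at 2.43, 4.17 and 2.57 (3.06 ± 0.967). The 3 DN outputs were the lowest of the 12 libraries. Over 6 pools its fold change was −1.20 ± 0.47 (adjusted p = 0.135, edgeR), with 4 of 6 pools below 0.

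*Slc25a20* (chromosome 9, 108662088 to 108684641, plus strand) had 12 to 429 counts per library and *Cpt2* (chromosome 4, 107903981 to 107923610, minus strand) had 2 to 145. *Slc25a20* was at 4.44 ± 2.41 normalized CPM in CTRL inputs, 2.50 ± 1.28 in CTRL outputs, 5.80 ± 5.94 in DN inputs and 3.95 ± 3.31 in DN outputs. *Cpt2* was at 2.16 ± 1.18, 0.63 ± 0.552, 0.789 ± 0.462 and 0.749 ± 1.22 in the same order. The counts of *Cpt2* in the DN outputs were 4, 145 and 2, so that 1 pool made the group mean. Both had a ratio below 0 in 5 of 6 pools and did not pass (*Slc25a20* −0.69 ± 0.75, *Cpt2* −0.93 ± 1.10). The *Cpt2* value moved to −2.29 with the pool as a block and to −2.71 without DN pool 2, and to −0.45 without CTRL pool 2, with no call in any of these.

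*Acadm* (chromosome 3, 153922357 to 153944632, minus strand), for medium chains, showed no common direction. It was at 6.68, 0.573 and 7.09 normalized CPM in CTRL inputs (4.78 ± 3.65) and at 1.98, 6.13 and 7.14 in CTRL outputs (5.09 ± 2.73). DN inputs had 13.0, 12.2 and 2.48 (9.24 ± 5.87) and DN outputs 5.63, 17.8 and 3.85 (9.09 ± 7.59). Pools ran from a log2 ratio of −1.36 to 2.18, and the fold change over 6 pools was 0.03 ± 0.60 (95% interval −1.24 to 1.31), an interval that holds a rise or a fall of more than 2-fold. The low input of CTRL pool 2, 16 counts against 192 and 159 in the others, set the highest ratio.

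*Acadvl* (chromosome 11, 70010183 to 70015411, minus strand), for very long chains, was hardly counted. CTRL inputs had 6, 7 and 17 counts and CTRL outputs 0, 1 and 48. The DN inputs together had 1 count and the DN outputs 3, both at or under the 3 counts that a group at 0 allows, so no fold is given. GENCODE places 42.9% of its exon bases within exons of *Dvl2*, and reads there cannot be assigned to one gene from these files.

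Without *Oxct1*, the order of levels per kilobase was mostly within the spread between pools. *Acadl* led inputs at 7.93 ± 5.13 normalized CPM per kilobase in CTRL and 5.18 ± 2.93 in DN, and its pools reach down toward *Acadm* (1.22 ± 0.933 and 2.36 ± 1.5). This lead depended on the annotated length. Without it, *Acadl* was at 15.9 and 10.4 normalized CPM in CTRL and DN inputs, *Cpt1a* at 11.6 and 11.9 and *Hadha* at 10.4 and 12.3. In CTRL outputs *Acadm* (1.3 ± 0.699), *Cpt1a* (1.12 ± 0.418), *Acadl* (1.11 ± 0.637) and *Hadha* (0.898 ± 0.381) did not stand apart. *Cpt2* was eighth and *Acadvl* last in each of the 4 groups.

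Other genes of these pathways were read from 6 lists beside the 9. Over 6 pools 4 of 55 tested list members passed, each lower in output, where 4.14% of all genes tested were called lower and 5.14% higher. They were *Decr1*, *Acsbg1*, *Bdh2* and *Fabp7*, and no list member passed in the higher direction.

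The list of mitochondrial beta oxidation and electron transfer had 12 of 14 genes tested, of which 1 passed, lower, and 11 had a negative fold change (median −0.56 against −0.02 over all genes). *Decr1*, the reductase needed for unsaturated fatty acids, was lower by −2.25 ± 0.51 (adjusted p = 0.00947, edgeR) and in 6 of 6 pools. Its inputs were at 7.65 to 16 normalized CPM and its outputs at 0.685 to 4.93, with no overlap, and the call held in 12 of 12 alternatives.

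Of carnitine shuttle and fatty acid activation, 10 of 11 genes were tested and 1 passed (median −0.20). This was *Acsbg1*, an acyl-CoA synthetase known from astrocytes, at −2.25 ± 0.68 (adjusted p = 0.0444, edgeR) and lower in 6 of 6 pools. CTRL outputs had 5.96 to 13.1 normalized CPM and DN outputs 0.289 to 5.44, against 14.4 to 38.1 in inputs. The adjusted p of *Acsbg1* was 0.0725 and 0.0902 without CTRL pool 1 or 2 and 0.116, 0.0628 and 0.0757 without DN pool 1, 2 or 3. *Acsl4*, an acyl-CoA synthetase for arachidonic acid, had a ratio above 0 in 6 of 6 pools and a fold change of 0.45 that did not pass.

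Of fatty acid uptake and binding, 6 of 6 genes were tested and 1 passed (median −0.35). *Fabp7*, the fatty acid binding protein of radial glia and astrocytes, was lower by −3.86 ± 0.96 (adjusted p = 0.0163, edgeR) and was also the 1 list gene called within DN (−4.29 ± 1.03, adjusted p = 0.0428). Its inputs were at 6.98 to 41.5 normalized CPM and its outputs at 0.0328 to 5.64. Over 6 pools the call was lost without DN pool 2 (adjusted p = 0.065), and within DN without DN pool 2 (0.296), without DN pool 3 (0.131) and in a fit of all 12 libraries (0.0975).

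Of ketone body synthesis, use and transport beside *Oxct1*, 8 of 10 genes were tested and 1 passed (median −0.82, with 4 of 8 negative). *Bdh2*, a cytosolic dehydrogenase, passed (adjusted p = 0.0129, edgeR) on low counts: 37, 12 and 5 in the CTRL input libraries, 278, 2 and 96 in those of DN, and 0 to 4 in outputs. Its call was lost without CTRL pool 1 (adjusted p = 0.0562), DN pool 1 (0.0695) or DN pool 3 (0.0506). *Acat1*, which splits the acetoacetyl-CoA that OXCT1 makes, was level between fractions, at 43.1 to 70.5 normalized CPM in inputs and 46.1 to 71.2 in outputs. Its fold change was 0.02, and slightly negative with DESeq2, with DESeq2's size factors and among genes of at least 5 CPM.

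The monocarboxylate carriers that bring ketone bodies into cells pointed in opposite directions without passing. *Slc16a1* (MCT1), known from endothelium and glia, had −1.67 (adjusted p = 0.0556, edgeR) and was below 0 in 6 of 6 pools. *Slc16a7* (MCT2), the neuronal carrier, had 1.11 (adjusted p = 0.083, edgeR) and was above 0 in 5 of 6 pools. DESeq2 called both (0.00401 and 0.0286).

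Of 11 tested genes of peroxisomal beta oxidation (median −0.24) 0 passed over 6 pools with edgeR, 2 had an unadjusted p below 0.05 and DESeq2 called 1. Of 8 tested regulators of fatty acid oxidation (median −0.31) 0 passed with edgeR or DESeq2, and 0 had an unadjusted p below 0.05 with edgeR. Over the 6 lists together DESeq2 called 9 of the 55 tested genes, near its 14.8% of all genes. Within CTRL alone 0 of 52 passed with edgeR (10 at an unadjusted p below 0.05, as 2200 of all 13456 genes were, and 3 called by DESeq2), where edgeR called 1.78% of all genes higher and 1.42% lower and DESeq2 called 8.71%. Within DN alone 1 of 49 passed (*Fabp7*), where edgeR called 1.84% higher and 1.54% lower, and DESeq2 called 4, where it called 8.62% of all genes.

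**Figure D3:**
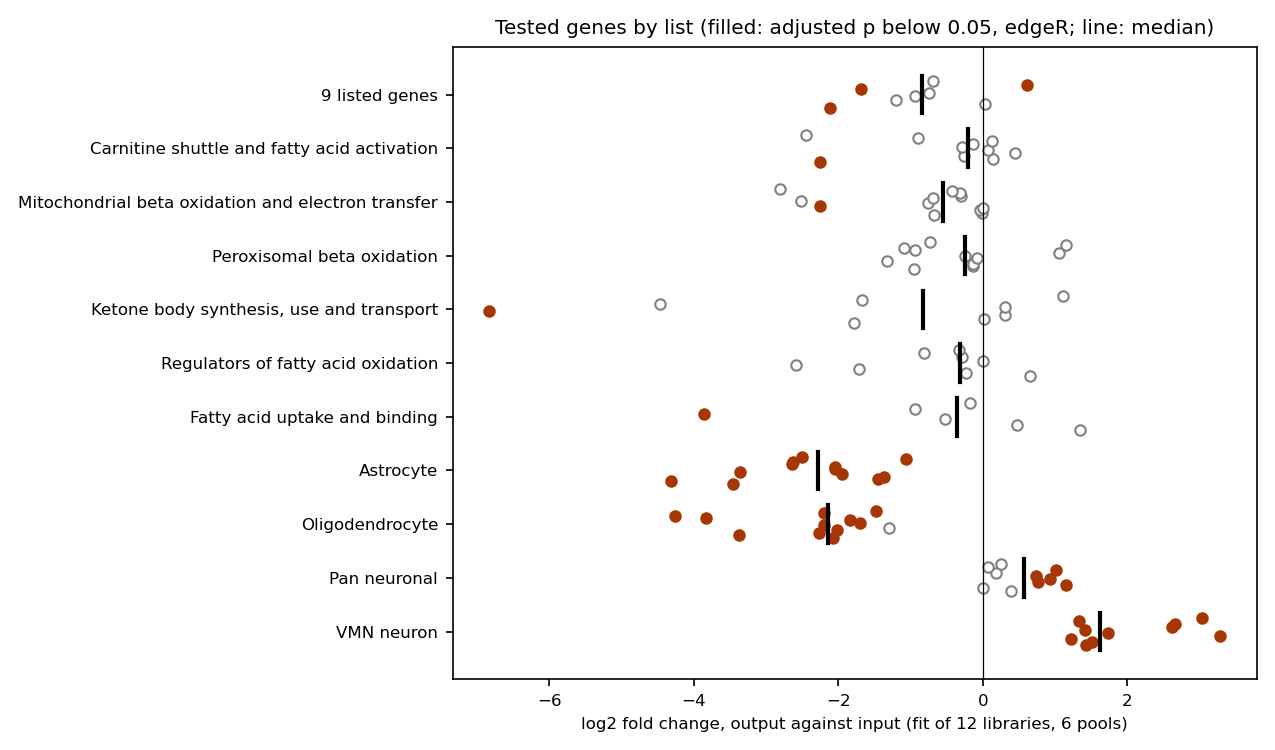
Log2 fold change of output against input over 6 pools (horizontal axis) for each tested gene of the 9 listed genes, the 6 pathway lists and 4 lists of cell type markers; filled points have an adjusted p below 0.05 and lines are medians. The astrocyte and oligodendrocyte lists lie at medians of −2.28 and −2.13, the VMN neuron list at 1.62, and the pathway lists at −0.82 to −0.20.

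DN was compared with CTRL in each fraction to ask what dominant-negative AMPK changes after a fast. In outputs 0 of the 8 tested genes passed, with edgeR and with DESeq2, and 0 had an unadjusted p below 0.05. Of all genes tested in outputs, 0% were called by edgeR (0 of 13333, with 721 at an unadjusted p below 0.05) and 0.435% by DESeq2. *Cpt1a* came nearest: its DN outputs (2.43 to 4.17 normalized CPM) lay below its CTRL outputs (5.59 to 11.9) with no overlap, at −1.48 ± 0.68 (95% interval −2.96 to 0.00, unadjusted p = 0.0506, adjusted p = 0.911, edgeR). Summed astrocyte markers were also lower in DN outputs, 1050 to 1160 normalized CPM against 1540 to 1750 in CTRL outputs. Marker by marker the list was mixed: 4 of 11 tested markers had a positive and 7 a negative fold change (median −0.22). With edgeR 0 of them passed. *Slc1a2* had the lowest unadjusted p of them (−0.63, unadjusted p = 0.000134, adjusted p = 0.88, edgeR). The sum weights each marker by its level, and which markers lower it was not tested. The part of astrocyte RNA in the *Cpt1a* value was not tested.

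For *Oxct1* the outputs differed by 0.27 (95% interval −0.18 to 0.72), the narrowest interval of the 8. *Hadha* differed by −0.43 (−1.81 to 0.94), *Hadhb* by 0.05 (−1.83 to 1.92), *Acadl* by 0.81 (−1.32 to 2.93) and *Acadm* by 0.83 (−0.84 to 2.50). For these 4 genes the intervals hold changes of more than 1 on the log2 scale. *Slc25a20* (0.66, −1.79 to 3.11) and *Cpt2* (0.24, −3.43 to 3.92) were wider still.

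In inputs 0 of the 8 passed and 0 had an unadjusted p below 0.05, where edgeR called 0.00756% of all genes (1 gene) and DESeq2 0.0151%. *Oxct1* in DN and CTRL tissue differed by 0.01 (95% interval −0.39 to 0.40), and *Cpt1a* by 0.04 (−1.26 to 1.34). The other fold changes ran from −1.45 (*Cpt2*) to 0.95 (*Acadm*).

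By the interaction term, a test of whether the output to input ratio differs between DN and CTRL, 0 of the 8 genes passed and 0 had an unadjusted p below 0.05, with edgeR calling 0% of all 15011 genes (933 at an unadjusted p below 0.05) and DESeq2 0.660%. The largest values were 1.70 ± 2.12 for *Cpt2*, −1.52 ± 0.86 for *Cpt1a* (95% interval −3.34 to 0.30, adjusted p = 0.85) and 1.42 ± 1.06 for *Acadl*. Of the 6 pathway lists 0 genes passed between DN and CTRL in outputs, inputs or the interaction, with edgeR or DESeq2, and 1, 2 and 2 had an unadjusted p below 0.05 with edgeR.

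**Figure D4:**
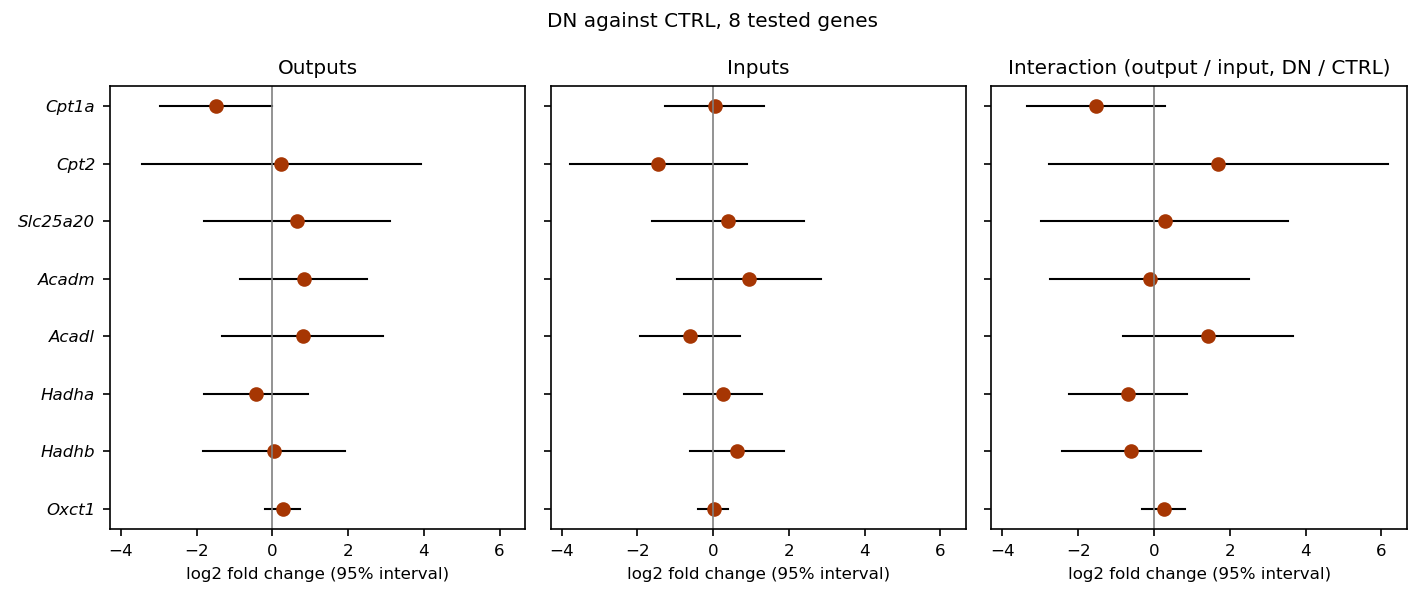
Fitted log2 fold change of DN against CTRL (points) with 95% intervals (lines) for the 8 tested genes in outputs, in inputs and for the output to input ratio (interaction), on a common horizontal axis. Intervals are shortest for *Oxct1* and longest for *Cpt2*, and the output interval of *Cpt1a* ends at 0.00.

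The genes whose pattern was most like each listed gene were taken by the smallest root mean square difference of centred log2(normalized CPM + 1) over 12 libraries among 7714 protein-coding genes, as a description. *Oxct1* was most like *Tmem30a* (0.14) and *Ncoa7* (0.15), and *Hadha* most like *Elavl2* (0.25) and *Ubn2* (0.27). *Hadhb* was most like *Erap1* (0.33) and *Qdpr* (0.38), *Cpt1a* most like *Utp6* (0.40) and *Rsrc1* (0.48), and *Acadl* most like *Pcp4l1* (0.60) and *Ugt8a* (0.61). A small value partly reflects how little a gene varies, since the SD of *Oxct1* over the libraries was 0.36 and that of *Acadl* 1.16 on this scale.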

How the data were processed

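RNA from 12 libraries was counted per Ensembl gene. Per the submitters' processing notes, the authors used cutadapt 1.3, STAR 2.4.2a and HTSeq 0.6.1 on GRCm38, and the deposited values are raw read counts. Annotation release, strand setting and tool parameters: not given in the sources used here. All RNA was amplified (NuGEN Ovation V2, per the labels). Reads without a gene (16.1 to 17% of counts with and without a gene in inputs, 24 to 26.1% in outputs) were left out. Symbols came from GENCODE release 21 (46005 of 46517 identifiers, 98.9%).

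edgeR 4.0.16 in R 4.3.3 (quasi-likelihood, two-sided, TMM, filterByExpr with a minimum count of 10 and total of 15) was fitted on all genes in 6 libraries per comparison, without a pool block, and in 12 for the interaction. Of the 9 genes 8 passed the filter, *Acadvl* did not. Intervals use the fit's total degrees of freedom (residual and prior). Within-pool ratios add 1 normalized CPM. The fit of 6 pools was added after seeing the data. Input and output of one condition and number were taken as the same animals, by the number in their titles. The deviations from group means of a pool's 2 libraries correlated across 15011 genes at 0.0963, 0.035 and 0.156 in CTRL. In DN they correlated at 0.00407, −0.00229 and 0.0153. CTRL and DN numbers join unrelated animals, and their libraries of one fraction and number correlated at −0.0134 to 0.00562. The DN values were thus hardly apart from those of unrelated animals.

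Alternatives were DESeq2 1.42.0, its size factors, no count filter, a mean of at least 5 CPM, no mitochondrial genes, 1 joint fit of 12 libraries, a replicate block and omission of each replicate in turn. The scripts were tested on simulated data. The 9 genes and all gene lists were chosen with earlier results of these data known. Named are the 9 genes and, of the lists, members past the threshold in a comparison and a few whose role was needed. Replicates are pools of different animals.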

Additional observations from a re-analysis of the deposited data

Results flagged for a closer look

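*Cpt1c*, the brain form of carnitine palmitoyltransferase 1, had an output above its input in 3 of 3 CTRL pools (log2 ratios 0.27, 1.54 and 0.52, mean 0.78) and below it in 3 of 3 DN pools (−1.17, −1.32 and −0.16, mean −0.88), a difference of −1.66 between the means. It was picked by a scan of the 9 genes and the 63 genes of the 6 lists. The scan asked for ratios on opposite sides of 0 in the pools of the 2 conditions, and *Cpt1c* was the only gene found. How often such a pattern arises without a difference was not tested. By the interaction test of edgeR the difference was −2.16 ± 1.03 (adjusted p = 0.802) and did not pass; over 11 alternatives it ran from −2.67 to −1.67 and passed in 0. Its level was 1.75 to 8.22 normalized CPM in inputs and 2.05 to 7.02 in outputs.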

How the results depend on the processing

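Of the 9 genes 1 was called in CTRL, and 0 without mitochondrial genes, with the pool as a replicate block (*Acadl* −2.74) and in 1 fit of all 12 libraries. In DN 1 was called, and 0 with DESeq2 size factors, above 5 CPM and with the block, and 3 with DESeq2. With each pool left out in turn the count was 0 to 0 in both, and 1 to 3 over 6 pools (3 with all). The block ended no other call of the 9 except *Hadhb* over 6 pools. Genes called over all genes were 431 in CTRL (1172 with DESeq2, 903 with no filter, 45 to 214 with a pool left out), 441 in DN (1124, 976, and 673 in 1 fit of 12, 115 to 148 with a pool left out) and 1393 over 6 pools (2219 with DESeq2). Between DN and CTRL, outputs had 0 (58 with DESeq2), the interaction 0 (99 with DESeq2, 54 with no filter) and inputs 1 (2 with DESeq2, 39 with no filter, 0 with size factors, above 5 CPM, without mitochondrial genes, with the block and in 1 fit of 12, and 0 to 8 with a library left out).

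Signs turned for values that passed in no setting. For output against input they were *Acadm* in CTRL (−0.03 above 5 CPM, and −0.6 to 0.77 with a pool left out), *Cpt1a* in CTRL (−0.78 to 0.24), and in DN *Cpt2* (−4.31 to 1.05), *Acadm* (−0.71 to 0.56) and *Slc25a20* (−0.98 to 0.07). Over 6 pools *Acadm* was −0.01 with DESeq2 and its size factors, −0.08 above 5 CPM and −0.25 to 0.3 with a pool left out, and *Acat1* was −0.02, −0.02 and −0.09. DN against CTRL in outputs turned for *Cpt2* (−1.98 with the number as a block, −3.81 to 1.23 with a library left out), *Slc25a20* (−0.03 with the block), *Hadhb* (−0.14 to 0.17) and *Acadm* (−0.1 to 1.2). In inputs *Oxct1* was −0.02 above 5 CPM, −0.01 without mitochondrial genes and −0.05 to 0.07 with a library left out, *Cpt1a* −0.06 with the block and −0.51 to 0.51, *Slc25a20* −0.26 with the block and −0.79 to 0.92, and *Acadl* −1.04 to 0.01. In the interaction *Cpt2* was −0.52 with the block and −2.52 to 2.95, *Acadm* −0.82 to 0.57 and *Slc25a20* −0.14 to 0.92. The cause was not tested. Limiting the fit to genes of at least 5 CPM moved the median of all genes by −0.10 in CTRL, −0.12 in DN and −0.11 over 6 pools.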
